A study of Mus musculus with 18 samples.

Results

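The AMPA and kainate receptor subunits Gria1 to Gria4 and Grik1 to Grik5 were followed in whole brain of mouse pups given lead acetate or saline. The 9 genes were taken by symbol, through the 18 probe sets that the platform annotation pairs with exactly 1 of these symbols, out of 18194 genes measured in this way. The brightest probe set of each gene by mean RMA value is the main one, and the 9 others are its check. All 9 subunits lay in the brighter 60% of genes and so were among the 10916 genes tested. None of the 9 passed the test for lead, for genotype or for a lead difference that depends on genotype.

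AMPA and kainate receptors are tetrameric cation channels opened by glutamate, and AMPA receptors carry most of the fast excitatory current in the brain. Gria1 to Gria4 encode the AMPA receptor subunits, and an AMPA receptor that holds the edited Gria2 subunit passes almost no calcium. Grik1, Grik2 and Grik3 encode kainate receptor subunits that can form channels alone, whereas the high-affinity subunits Grik4 and Grik5 need them as partners. Lead competes with calcium and zinc for binding sites in proteins, and metallothioneins store zinc and copper and take up toxic metals.

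The study had 6 pools, 1 for each combination of 3 genotypes and 2 treatments. The genotypes were wild-type (+/+), heterozygous (+/-) and Mt-KO (-/-), where Mt is read here as metallothionein, and all came from brother-sister crosses after at least 7 generations of backcrossing to C57BL/6J. On postnatal days 7 and 8 the treated pups received 2 daily injections of lead acetate, each of 50 mg/kg and separated by 4 h, while weight-matched controls received saline. Harvest followed on postnatal day 8, when 6 h had passed since the final injection, within the period of synaptogenesis. RNA from the brains of 5 pups, with both sexes in the labels of every pool, was pooled and hybridised to 1 Mouse Genome 430 2.0 array, so no combination was replicated and the spread between pups was not measured. In the tests the 3 genotypes stood in as replicates of the lead difference and the treatments as replicates of the genotype differences, which left 2 residual degrees of freedom.

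Several facts of the arrays bear on the subunits. Mt1, the metallothionein 1 gene, had RMA values (log2) of 13.17 (+/+), 12.45 (+/-) and 11.68 (-/-) with saline and 13.30, 12.87 and 11.71 with lead, and its Mt-KO coefficient was -1.54 (limma, adjusted p = 6.0e-09). The median tested gene differed between arrays by more than many single genes, with lead minus saline of -0.18 (+/+), 0.15 (+/-) and 0.09 (-/-). Differences between single pools are therefore given relative to the median tested gene, and fitted coefficients as deposited. The 3′ minus 5′ difference of the Gapdh control probe sets was 1.19 in wild-type saline and 0.54 to 0.82 in the other pools. The Mt-KO saline pool had the highest Xist value, 12.75, and an RMA value of 6.50 for the Y-linked Eif2s3y, against 9.45 to 11.16 in the other pools. All 8 neuron markers and all 7 astrocyte markers listed for whole brain were among the tested genes. In these bulk pools, fewer cells of a type and less RNA per cell cannot be told apart.

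For lead, 0 of the 9 subunits and 13 of the 10916 tested genes (0.119%) had an adjusted p under 0.05 in limma. For Mt-KO against wild-type the counts were 0 of 9 subunits and 47 genes (0.431%), and for heterozygous against wild-type 0 of 9 and 13 genes (0.119%). For the interaction of lead with the number of intact alleles they were 0 of 9 and 412 genes (3.77%). At an unadjusted p under 0.05 the subunits counted 0 for lead, 1 for Mt-KO (Gria1), 0 for heterozygous and 3 for the interaction (Gria3, Grik1 and Grik3), beside 1.53%, 3.5%, 1.2% and 20.1% of all tested genes. A count of 0 of 9 is near these background shares. The 95% intervals of the 9 lead coefficients lay between -0.38 and 0.56, those of the Mt-KO coefficients between -0.95 and 0.52, and those of the heterozygous coefficients between -0.78 and 0.46. The widths of these intervals follow the brightness of a gene and not its own spread over the pools.

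**Figure D1:**
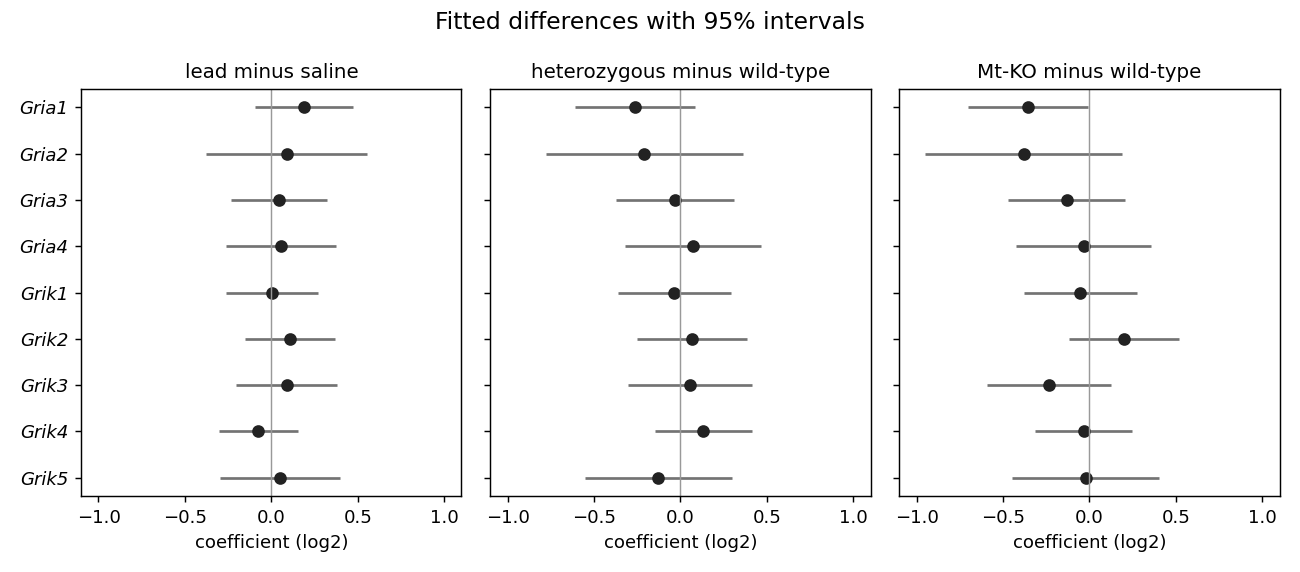
Fitted differences of the 9 subunits on the log2 scale, 1 row per gene, for lead minus saline, heterozygous minus wild-type and Mt-KO minus wild-type; points are limma coefficients from the 6 RMA arrays and lines their 95% intervals. Every interval but that of Gria1 for Mt-KO includes 0. The widths follow brightness and not each gene's own spread, and Gria2, the brightest, has the widest.

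Because lead is a metal and the mice differ in a metal-binding gene, the RefSeq promoter windows (build GRCm38) were searched for the core of the metal response element, the short sequence through which zinc and cadmium switch on metallothionein genes. The core was spelled TGCACNC or TGCGCNC and sought on both strands of the 250 bases before the transcript start used by the promoter table. Windows were available for 6 subunits, and those of Gria4, Grik2 and Grik3 held a core, as did that of Mt1, while those of Gria2, Grik4 and Grik5 did not. Of 32851 windows of the same length in the table, 21.4% held either form, 10.4% the first and 12.5% the second. The subunit windows were 58.8% to 82.0% G or C, against a median of 52.4% over all windows. The matches are shown 5′ to 3′ with up to 10 bases on either side and the core in capitals, to be set beside the values of these genes; the Mt1 sequence is given for comparison.
Mt1 (chr8:94179056-94179082, plus strand): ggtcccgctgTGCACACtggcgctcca
Grik2 (chr10:49788904-49788930, plus strand): aagagcacggTGCACTCtttatttcaa
Grik3 (chr4:125490471-125490497, minus strand): cgggcgggctTGCACGCgtctccggcc
Grik3 (chr4:125490660-125490686, minus strand): cccgcggcgcTGCGCACatcttactgg
Gria4 (chr9:4796257-4796283, minus strand): tcccctcgcgTGCGCGCgctcgctcgc
Gria4 (chr9:4796235-4796258, plus strand): attgggtTGCGCGCccgcgcgagc
The stretches shown for Gria4 share flanking bases, and their cores begin 39 and 14 bases before the start. In 5 of the 6 subunit windows (all but that of Gria4), the transcript start of the table lies inside the annotated gene span. The same holds for Mt1. The matches of Mt1, Grik2 and Grik3 themselves lie within the span of their gene, and those of Gria4 lie outside it. A match of letters is a description and does not show that a factor binds there.

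Gria1 (chromosome 11, 57011571 to 57330244 in GRCm38) encodes the subunit whose phosphorylated tail governs delivery of AMPA receptors to synapses during plasticity. Its RMA values were 11.69 (+/+), 11.31 (+/-) and 11.10 (-/-) with saline and 11.64, 11.49 and 11.53 with lead. Relative to the median gene, the wild-type pools were the 2 highest and the Mt-KO saline pool the lowest. Mt-KO minus wild-type was -0.46 in the saline pools and -0.26 in the lead pools, and the coefficient was -0.35 (SE 0.18, 95% interval -0.70 to -0.0063). That coefficient had an unadjusted p of 0.046 and an adjusted p of 1 in limma, and was -0.63 with GC-RMA values and -0.20 with averaged probe sets. Lead minus saline was 0.14 (+/+), 0.05 (+/-) and 0.33 (-/-), above the median gene in all 3, with a coefficient of 0.19 (SE 0.14, limma adjusted p = 1). The other Gria1 probe set did not repeat the genotype difference in both treatments, with values of -0.18 in saline and 0.07 in lead.

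Gria2 (chromosome 3, 80681450 to 80804227) encodes the subunit that sets calcium permeability. Its RMA values were 13.79 (+/+), 13.23 (+/-) and 13.15 (-/-) with saline and 13.48, 13.61 and 13.36 with lead. Relative to the median gene these were 2.74, 2.32 and 2.23 with saline and 2.61, 2.57 and 2.34 with lead, so that within each treatment the value was lower with each lost allele. Gria2 was the only subunit with that order, which 7.15% of tested genes also showed; the order was noticed in the values and was not tested. Mt-KO minus wild-type was -0.51 in saline and -0.26 in lead, with a coefficient of -0.38 (SE 0.29, 95% interval -0.95 to 0.19, limma adjusted p = 1), or -0.16 after quantile normalization. The 2 other Gria2 probe sets gave -0.40 and -0.21 in saline and -0.10 and -0.18 in lead, all below the median gene, but neither had the order by allele in both treatments. Lead minus saline was -0.13, 0.25 and 0.12 in the 3 pairs and did not keep 1 direction.

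Gria3 (X chromosome, 41400819 to 41678601) encodes an AMPA subunit linked to X-linked intellectual disability. Its RMA values were 11.53 (+/+), 11.29 (+/-) and 11.09 (-/-) with saline and 11.23, 11.41 and 11.41 with lead. Relative to the median gene, the Mt-KO saline pool stood lowest at 0.17 and the others lay between 0.36 and 0.48. The Mt-KO coefficient was -0.13 (SE 0.17) and the lead coefficient 0.05 (SE 0.14), both with an adjusted p of 1 in limma. A dimmer Gria3 probe set also had its lowest value in Mt-KO saline, and for it Mt-KO minus wild-type was -0.64 in saline and -0.35 in lead. The lowest pool of this X-linked gene is the one with the highest Xist and the lowest Eif2s3y, and the part of sex composition in its value was not tested.

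Gria4 (chromosome 9, 4417893 to 4796234) encodes the AMPA subunit typical of early development and of cerebellar and thalamic cells. It was the steadiest of the 9, with RMA values of 12.11 (+/+), 12.07 (+/-) and 11.98 (-/-) with saline and 12.03, 12.21 and 12.09 with lead. Its range over the pools relative to the median gene was 0.11, smaller than that of all but 3.42% of tested genes. The lead coefficient was 0.06 (SE 0.16) and the Mt-KO coefficient -0.03 (SE 0.20), both with an adjusted p of 1 in limma. The Gria4 probe set of intermediate brightness differed, with RMA values of 10.16 (+/+), 10.15 (+/-) and 10.33 (-/-) with saline and 10.19, 10.64 and 10.71 with lead. For that probe set lead minus saline was 0.21 (+/+), 0.36 (+/-) and 0.29 (-/-), and Mt-KO minus wild-type 0.30 in saline and 0.38 in lead. Neither of its coefficients passed the test across probe sets (lead 0.30, SE 0.12, limma adjusted p = 1).

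**Figure D2:**
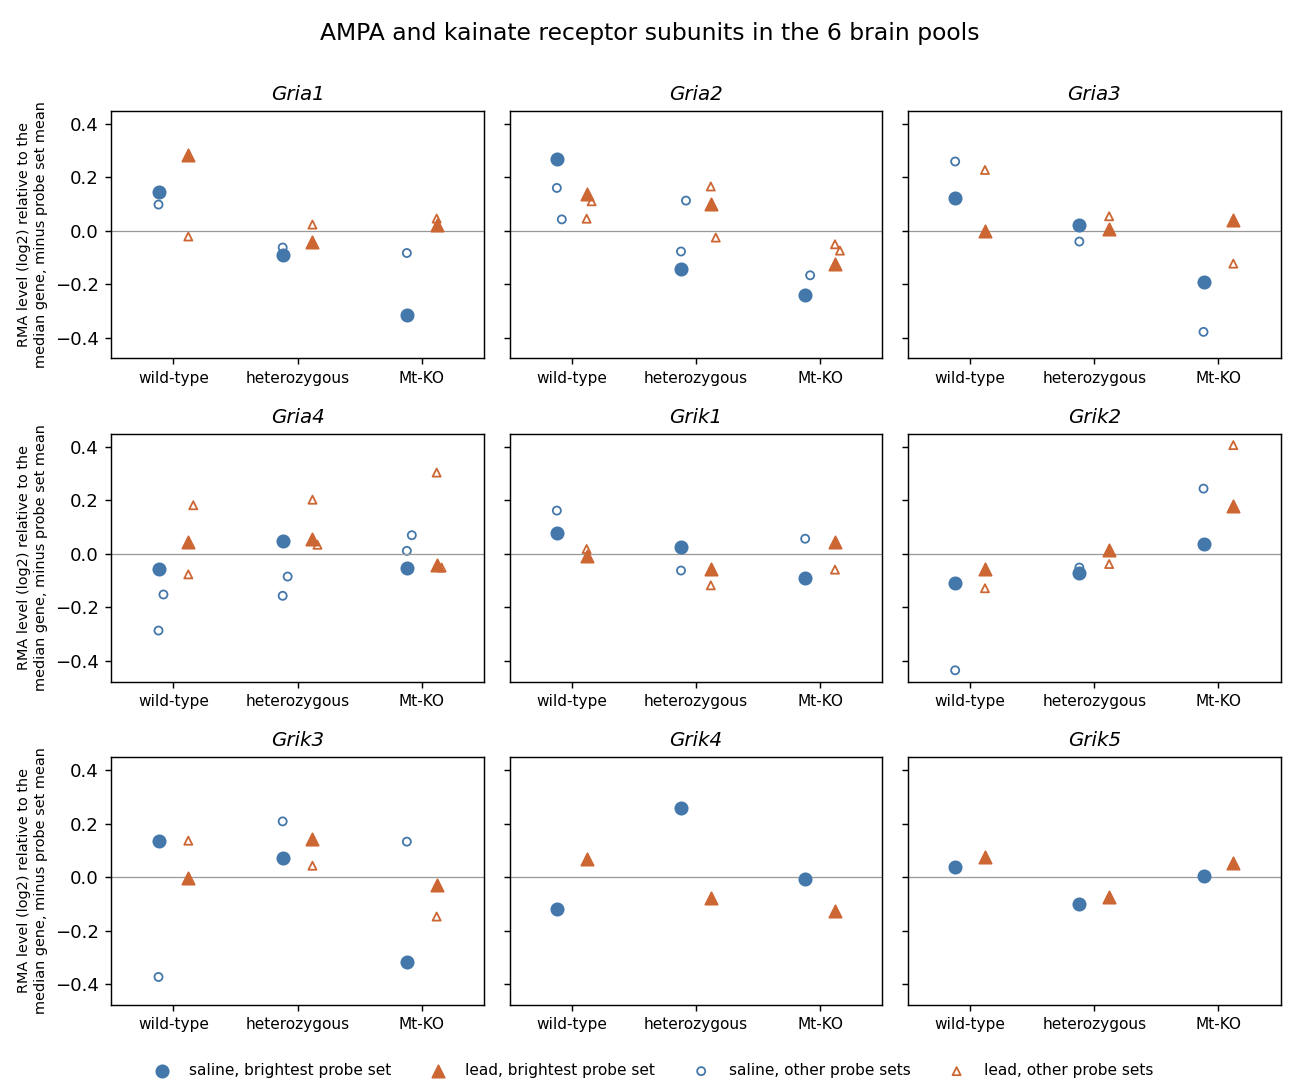
RMA values (log2) of the 9 subunits relative to the median tested gene of each array, minus the mean of each probe set over the 6 pools, against genotype; circles are saline and triangles lead pools, filled symbols the brightest and open symbols the other probe sets, 1 array per symbol. The brightest Gria1, Gria2, Gria3, Grik1 and Grik3 probe sets are lowest in Mt-KO saline. The filled symbols of Gria4, Grik1 and Grik5 lie close together.

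Among the kainate subunits, Grik1 (chromosome 16, 87895901 to 88290863) encodes a subunit prominent in interneurons. Its RMA values were 11.25 (+/+), 11.05 (+/-) and 10.95 (-/-) with saline and 10.98, 11.11 and 11.18 with lead. Relative to the median gene these lay between 0.03 and 0.20. The lead coefficient was 0.0037 (SE 0.14) and the Mt-KO coefficient -0.05 (SE 0.17), both with an adjusted p of 1 in limma. The other Grik1 probe set was lowest in heterozygous lead, whereas the brightest was lowest in Mt-KO saline. For that other probe set lead minus saline was -0.14 (+/+), -0.06 (+/-) and -0.12 (-/-), below the median gene in each pair.

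Grik2 (chromosome 10, 49093680 to 49790161) encodes the main kainate subunit of principal neurons such as those of the hippocampus, and is one of the genes with a core match above. Its RMA values were 10.84 (+/+), 10.73 (+/-) and 10.85 (-/-) with saline and 10.71, 10.95 and 11.09 with lead. Relative to the median gene it was -0.21, -0.18 and -0.07 with saline and -0.16, -0.09 and 0.07 with lead, higher with each lost allele within both treatments, an order shared by 4.07% of tested genes and noticed in the values. Lead minus saline was 0.05, 0.08 and 0.14 in the 3 pairs. The Mt-KO coefficient was 0.20 (SE 0.16, 95% interval -0.12 to 0.52) and the lead coefficient 0.11 (SE 0.13), both with an adjusted p of 1 in limma. With averaged probe sets the Mt-KO coefficient was 0.41. That average takes in a dim Grik2 probe set with a coefficient of 0.61. The GC-RMA values of that probe set were 1.62 to 2.34, below the array medians.

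Grik3 (chromosome 4, 125490259 to 125714173) encodes a kainate subunit with low sensitivity to glutamate, and its window held 2 of the cores shown. Its RMA values were 11.90 (+/+), 11.70 (+/-) and 11.32 (-/-) with saline and 11.58, 11.90 and 11.70 with lead. The Mt-KO saline pool was again the lowest, at 0.40 relative to the median gene, against 0.69 to 0.86 in the others. Mt-KO minus wild-type was -0.45 in the saline pools but -0.03 in the lead pools, with a coefficient of -0.23 (SE 0.18, limma adjusted p = 1).

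Grik4 and Grik5 encode the high-affinity subunits, and each had 1 probe set. Grik4 (chromosome 9, 42518182 to 42945000) had RMA values of 9.86 (+/+), 10.10 (+/-) and 9.84 (-/-) with saline and 9.86, 9.89 and 9.81 with lead, with the heterozygous saline pool alone above the rest on this scale. With GC-RMA values that pool was instead the lowest, at 3.59. Its lead coefficient was -0.07 (SE 0.12), and under the GC-RMA and PLIER values its sign turned. Grik5 (chromosome 7, 25009849 to 25075694), the partner subunit most widely expressed in the brain, had RMA values of 12.55 (+/+), 12.27 (+/-) and 12.39 (-/-) with saline and 12.41, 12.43 and 12.53 with lead. Lead minus saline of Grik5 was 0.04, 0.03 and 0.05 in the 3 pairs, and both heterozygous pools stood below the other pools relative to the median gene. No coefficient of either gene passed the test, with adjusted p-values of 1 in the additive limma fit.

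Over the 9 subunits, lead minus saline had a median relative to the median gene of 0.04 in wild-type, 0.03 in heterozygous and 0.14 in Mt-KO pups. Of the 9 values, 5, 6 and 8 were above 0 in these genotypes. Grik4 was the exception in the Mt-KO pair, which was also the pair most unlike in Xist (12.75 with saline, 10.23 with lead) and Eif2s3y (6.50 and 11.16); the part of sex composition was not tested. The largest single values were 0.33 for Gria1 and 0.29 for Grik3, both in the Mt-KO pair, and -0.34 for Grik4 in the heterozygous pair. Only Gria1, Gria4, Grik2 and Grik5 lay above the median gene in all 3 pairs. Markers of the cerebellum, listed as a check on the brain regions in each pool, went with lead: all 11 tested had coefficients above the median gene, with a median of 0.42 relative to it. Their mean level relative to the median gene was 0.00 (+/+), 0.29 (+/-) and 0.29 (-/-) with saline and 0.65, 0.52 and 0.58 with lead. En2 (0.55) and Pax6 (0.54), transcription factors of the cerebellar lineage, had raised values in the main fit (limma, adjusted p = 0.0027 and 0.0036). No gene, these included, was called for lead with GC-RMA values, quantile normalization or centred arrays. The 7 astrocyte markers likewise all lay above the median gene, with a median of 0.20. So did all 5 microglia and all 4 myelin markers tested, with medians of 0.30 and 0.24. Of the striatum and interneuron markers 1 of 6 each lay above it, with medians of -0.07 and -0.10. The part of tissue composition in the subunits' lead values was not tested. Without the wild-type pair, 4 subunits and 2632 of all genes passed the limma test for lead: Gria1 0.30 (adjusted p = 0.0063), Grik3 0.29 (0.0067), Grik2 0.23 (0.021) and Gria3 0.22 (0.025). In the 2 pairs that remained, the median gene itself differed by 0.15 and 0.09.

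**Figure D3:**
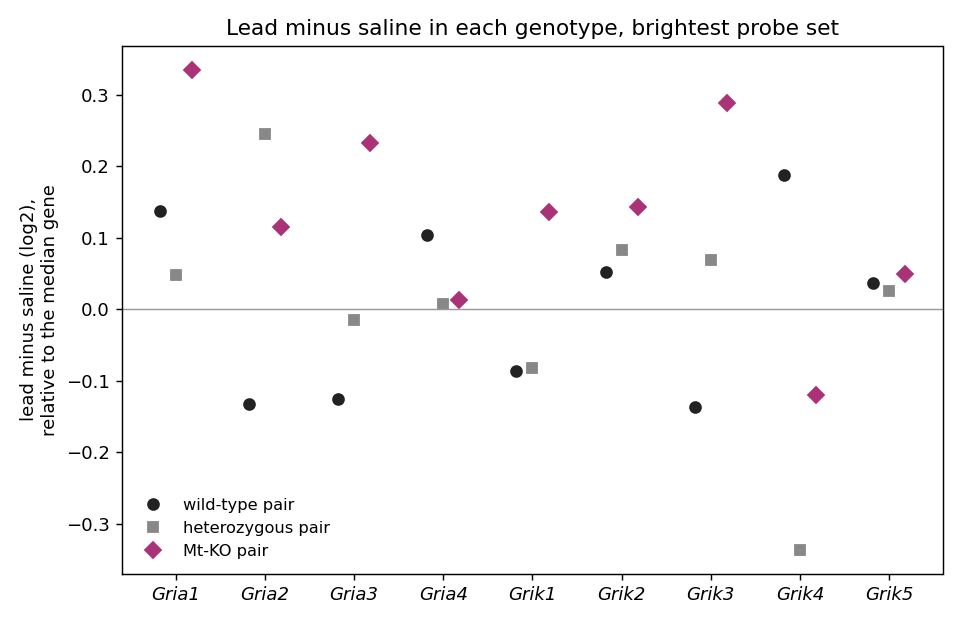
Lead minus saline (log2, relative to the median tested gene) of the brightest probe set of each subunit, 1 symbol per genotype pair: circles wild-type, squares heterozygous, diamonds Mt-KO, each a difference of 2 single arrays. The Mt-KO diamonds of Gria1, Gria3 and Grik3 lie at 0.33, 0.23 and 0.29, and only Grik4 has its Mt-KO value below 0.

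The Mt-KO saline pool stood out among the subunit values. It was the lowest of the 6 pools, relative to the median gene, for Gria1, Gria2, Gria3, Grik1 and Grik3. That is 5 of 9 subunits, against 23.2% of tested genes, each by its brightest probe set. It was also lowest for 9 of 18 probe sets, several of them of the same gene, for which no background share was taken. This count was chosen after the values were seen. Mt-KO minus wild-type had a median of -0.39 over the 4 AMPA subunits in saline, from -0.51 for Gria2 to 0.0055 for Gria4, and of -0.17 in the lead pools. For the 5 kainate subunits the medians were -0.04 and -0.02, with saline values from -0.45 for Grik3 to 0.15 for Grik2. Of the 8 neuron markers, Snap25 and Nefm among them, 0 had a Mt-KO coefficient above the median gene, their median relative to it was -0.37, and 0 passed the limma test. Their mean level relative to the median gene was 3.16 (+/+), 2.82 (+/-) and 2.65 (-/-) with saline and 3.0, 3.03 and 2.76 with lead. Other lists lay below the median gene too, with 1 of 7 astrocyte markers above it (median -0.20) and 0 of 5 oligodendrocyte precursor and 0 of 2 choroid plexus markers (medians -0.10 and -0.34). Cerebellum markers went the other way, with 9 of 11 above (median 0.19), and the medians of microglia and striatum markers were 0.00085 and 0.02. In wild-type saline the mean levels were 2.10 for astrocyte and 1.91 for choroid plexus markers. They were 0.0029 for cerebellum, -0.28 for microglia and 0.44 for striatum. The part of these markers, or of brightness, in the subunits' values was not tested.

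Leaving out single wild-type arrays changed the genotype calls. Each such fit rests on 1 wild-type array, and its coefficients are as deposited, not relative to the median gene. The median tested gene differed from wild-type saline by -0.15 in Mt-KO saline and -0.16 in heterozygous saline. From wild-type lead it differed by 0.10 and 0.17 in the matching lead pools. The subunit calls below had the sign of the shift from the array kept, as did most genes called. The part of these shifts in the calls was not tested. Without the wild-type lead pool 5 subunits passed the limma test for Mt-KO, all lower, with coefficients of -0.68 for Gria2, -0.54 for Grik3, -0.53 for Gria1, -0.40 for Gria3 and -0.26 for Grik1, among 4380 genes. Without the wild-type saline pool Grik2 alone passed, at 0.38 (limma, adjusted p = 0.0046), among 2429 genes, and the coefficients of Gria3 and Grik3 turned to 0.13 and 0.07. For heterozygous against wild-type, 5 subunits (Gria1, Gria2, Gria3, Grik3 and Grik5, all lower) passed without wild-type lead, among 2421 genes, and Grik2 and Grik3, both higher, without wild-type saline, among 2627 genes. Without any 1 of the 4 other pools, no subunit passed for either genotype.

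The interaction asks whether the lead difference changes with the number of intact alleles, and its coefficient is the change in lead minus saline per allele. It was negative for 8 of 9 subunits (6 after quantile normalization, where Gria4 and Grik5 turned), and that of the median tested gene was -0.15. The most negative were Grik3 at -0.35 (SE 0.13, limma adjusted p = 0.099), Gria3 at -0.32 (SE 0.12, limma adjusted p = 0.12) and Grik1 at -0.25 (SE 0.12, limma adjusted p = 0.22). Relative to the median gene the 9 coefficients had a median of -0.09, with 3 above it. For Grik3, lead minus saline ran from -0.14 in the wild-type pair through 0.07 to 0.29 in the Mt-KO pair, but its coefficient was -0.20 after quantile normalization and -0.046 with averaged probe sets. Grik3 passed the limma test without the heterozygous lead pool (-0.35, adjusted p = 0.037, among 649 genes) and without the Mt-KO lead pool (-0.61, adjusted p = 0.015, among 1029 genes).

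Each probe set was also tested on its own, and 0 of the 17 subunit probe sets in the brighter 60% passed in any of the 4 comparisons in limma, where 1.54% of the results of all probe sets did. Of their results 10 had an unadjusted p under 0.05, 6 of them for the interaction, beside 7.79% over all probe sets and comparisons. The nearest was the dim Grik2 probe set, with RMA values of 9.34 (+/+), 9.58 (+/-) and 9.89 (-/-) with saline and 9.46, 9.73 and 10.14 with lead. Its values were higher with each lost allele, and its Mt-KO coefficient was 0.61 (SE 0.13, limma adjusted p = 0.059, or 0.22 with no filter on dim probe sets). Its GC-RMA values of 1.62 to 2.34 lay below the array medians of 3.96 to 4.19, and there only Mt-KO lead stood above the rest, at 2.34. The dim Grik3 probe set differed from the bright one in direction in the saline pools, with Mt-KO minus wild-type of 0.51 in saline and -0.28 in lead, and its GC-RMA values were 2.31 to 2.45. Grik4, at 3.59 to 3.85, was also below the array medians under GC-RMA, as were 1 Gria4 probe set at 1.92 to 2.07 and, in 5 of 6 pools, the dim Gria3 probe set. The remaining probe sets had GC-RMA values of 5.63 or more.

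**Figure D4:**
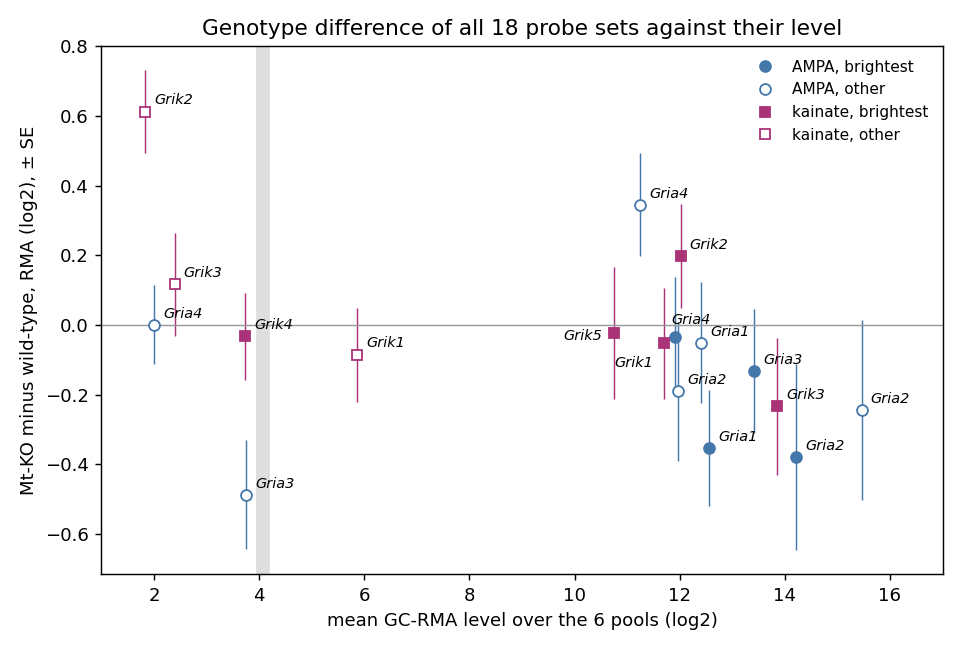
Mt-KO minus wild-type coefficient with its standard error (log2, RMA values, fit over all probe sets) of the 18 subunit probe sets against their mean GC-RMA value over the 6 pools; circles are AMPA and squares kainate subunits, filled symbols the brightest probe set of a gene, and the grey band spans the array medians of 3.96 to 4.19. The most positive coefficient, 0.61 for a Grik2 probe set, lies left of the band.

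Calcium permeability depends on how much Gria2 the cell makes beside the other AMPA subunits, so the Gria2 value was taken minus the mean of Gria1, Gria3 and Gria4 on each array. For this balance lead minus saline was -0.17 (+/+), 0.23 (+/-) and -0.08 (-/-). The mean was -0.0057 ± 0.21 (SD, n = 3 pairs; exact two-sided sign-flip test, p = 1, where 3 pairs allow no p below 0.25). Relative to wild-type saline the balance was -0.34 and -0.25 in heterozygous and Mt-KO saline, and -0.17, -0.11 and -0.33 across the genotypes with lead. With GC-RMA values the balance of Mt-KO saline was 0.12, of the opposite sign, and the mean lead difference -0.17 (exact two-sided sign-flip test, p = 0.5). The arrays measure the amount of Gria2 transcript and not the editing that closes the channel to calcium.

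The partners of these receptors were taken from 7 lists holding 63 genes, of which 55 were tested. None of the 55 passed the limma test for lead, Mt-KO or heterozygous, and 2 passed for the interaction, a share near the 3.77% of all tested genes. Among the 14 AMPA receptor auxiliary subunits, which steer receptor delivery and gating, 8 had a lead coefficient above the median gene and 4 a Mt-KO coefficient above it. Cacng3, a transmembrane AMPA receptor regulatory protein, had the most marked Mt-KO coefficient, 0.41 (SE 0.14, limma adjusted p = 0.38), with 0.62 in saline and 0.19 in lead. Frrs1l, needed for AMPA receptor assembly, had a Mt-KO coefficient of -0.27, and the lead coefficients of Cacng7 and Cnih3 were -0.16 and 0.09. The kainate receptor auxiliary subunits Neto1 and Neto2 had lead coefficients of 0.06 and 0.12 and Mt-KO coefficients of 0.12 and -0.06.

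Of the 4 NMDA and delta receptor subunits tested, Grin2b, the NMDA receptor subunit dominant in the newborn forebrain, had a Mt-KO coefficient of -0.39 (SE 0.19, limma adjusted p = 1), with -0.48 in saline and -0.31 in lead. Grin2d and Grid1 had Mt-KO coefficients of -0.20 and 0.04 and lead coefficients of -0.05 and -0.06. Grin1 had no probe set with that symbol alone, and Grin2a, Grin2c and Grin3b were too dim to be tested. Among the 14 trafficking and scaffold partners tested, 10 had a lead coefficient above the median gene and 6 a Mt-KO coefficient above it. Grip1, a scaffold that binds the Gria2 tail, had a Mt-KO coefficient of -0.27 and a lead coefficient of 0.11, while Dlg1 and Grip2 had lead coefficients of 0.15 and -0.12. Of the 6 extracellular clustering partners, the synaptic adhesion proteins Lrrtm2 and Lrrtm1 had Mt-KO coefficients of -0.30 and -0.33.

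Adarb1, the deaminase that edits the Gria2 transcript, had RMA values of 10.42 (+/+), 10.45 (+/-) and 10.67 (-/-) with saline and 10.19, 10.21 and 10.43 with lead. Each lead pool was below its saline control, with differences of -0.05, -0.37 and -0.34 relative to the median gene, and the coefficient was -0.24 (SE 0.13, limma adjusted p = 1). Adarb2 and Adar had lead coefficients of 0.08 and 0.02. All 12 tested kinases and phosphatases that act on the receptors had lead coefficients above the median gene, with a median of 0.07 relative to it, and 1 of 12 had a Mt-KO coefficient above it, with a median of -0.23. Prkacb, a catalytic subunit of protein kinase A, had a Mt-KO coefficient of -0.39 (SE 0.33), and Camk2d, a calcium/calmodulin-dependent kinase, a lead coefficient of 0.21 (SE 0.15).

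The 2 partners that passed for the interaction were Akap5, which anchors protein kinase A and calcineurin beside AMPA receptors, and Shisa6, an auxiliary subunit that keeps AMPA receptors at synapses. Akap5 had RMA values of 11.31 (+/+), 11.50 (+/-) and 10.56 (-/-) with saline and 10.95, 11.20 and 11.55 with lead. Its lead minus saline was -0.18, -0.43 and 0.91, which are not even steps per allele. Its interaction coefficient was -0.68 (limma, adjusted p = 1.2e-05), or -0.54 relative to the median gene. These values are of the brightest of 3 Akap5 probe sets, and those of Shisa6 below of the brightest of 2. The value rested on Mt-KO saline, the lowest pool: without it the coefficient was -0.12 (limma, adjusted p = 0.78). Shisa6 had RMA values of 10.73 (+/+), 10.06 (+/-) and 10.05 (-/-) with saline and 10.05, 10.21 and 10.36 with lead. Its interaction coefficient was -0.49 (limma, adjusted p = 0.0019), or -0.35 relative to the median gene. Wild-type saline stood above the 5 others, and without it the coefficient was -0.16 (limma, adjusted p = 1); without wild-type lead it was -0.49 with an adjusted p of 1. Neither gene passed with GC-RMA values, quantile normalization or centred arrays, where the largest adjusted p was 0.39 and the smallest 0.098 in limma.

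The tested gene whose pattern over the 6 pools was most like each subunit was found by Pearson's r of the values relative to the median gene. With 6 points shared across genes on the same arrays, these are descriptions. Gria2 was matched most closely by the translation factor Eif3a (r = 0.998), with 92 genes within 0.02 of that value. Gria1 was most like Fxyd6 (0.992), Gria3 like Pagr1a (0.997) and Gria4 like Aldh1a1 (0.982). Grik1 was most like Mmaa (0.976), Grik2 like Mapk6 (0.993), Grik3 like the sodium channel gene Scn1a (0.990), Grik4 like Uqcc3 (0.987) and Grik5 like Dnajc7 (0.986). Over the 6 pools the subunits' ranges relative to the median gene ran from 0.11 for Gria4 to 0.59 for Gria1, with a median of 0.32, beside a median of 0.28 and quartiles of 0.20 and 0.38 over all tested genes.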

How the data were processed

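Total RNA from 6 whole-brain pools of 5 pups was measured on Mouse Genome 430 2.0 arrays. The authors deposited each array summarised by RMA, GC-RMA and PLIER, 18 columns in all, made with Partek per the submitters' processing notes; for the versions, "not given in the sources used here" applies. As deposited, RMA and GC-RMA come as log2 values; PLIER comes as deposited intensity on a linear scale and was used as log2(value + 16). No signal over background or detection call was used, and the single array per combination limits the precision.

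Probe sets were named through the platform annotation: 34958 of 45101 had 1 gene symbol, 932 several and 9211 none. Symbols were checked through gene identifiers against RefSeq (GRCm38.p6), and 34754 matched. The brightest probe set stood for a gene, and the brighter 60% of genes (10916) were tested.

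limma 3.58.1 (R 4.3.3) was fitted to the 6 RMA arrays with lmFit and eBayes (trend), 2-sided, with Benjamini-Hochberg adjustment over all tested genes and a threshold of 0.05: an additive fit of treatment and genotype, and a fit of treatment, intact alleles and their product. Since pools were not replicated, p-values rest on deviations from these additive or linear models, pooled over genes of like brightness. In the main gene fits the standard errors followed brightness. For lead they ran from 0.12 for Grik4, the dimmest subunit, to 0.24 for Gria2, the brightest. They therefore do not measure each gene's own spread over the pools. Levels of different probe sets were compared as brightness only and not read as relative amounts of transcript. On simulated data with 10916 genes, the lead test recovered 87% of genes changed by 0.5 and the Mt-KO test 65%. The simulated noise was independent between arrays, with a spread set by brightness alone and no array-wide shift. The real arrays had such shifts, so these shares check the code and are not the power for the subunits.

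The subunits, partner lists and markers were chosen with earlier results of these data known. Named genes are the 9 subunits, the 3 partners of each list with the largest statistic for lead and for Mt-KO, the gene most like each subunit, and up to 2 markers of a list; Akap5 was named as a gene called. Alternatives were the other summaries, quantile normalization, median centring, other filters, no genotype block, eBayes without trend, averaged probe sets and leaving out arrays.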

Additional observations from a re-analysis of the deposited data

Results flagged for a closer look

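The lead difference of Akap5 depended on genotype by the interaction term of the limma fit, with a coefficient of -0.68 per intact allele, and so did that of Shisa6, with -0.49. Relative to the median gene these were -0.54 and -0.35. Neither gene passed with GC-RMA values, quantile normalization or centred arrays. Lead minus saline of Akap5, relative to the median gene, was -0.18 (+/+), -0.43 (+/-) and 0.91 (-/-), not even steps per allele. Both were read from the brightest probe set, of 3 for Akap5 and 2 for Shisa6. Without Mt-KO saline the Akap5 coefficient was -0.12, and without wild-type saline that of Shisa6 was -0.16, neither called; without wild-type lead the Shisa6 coefficient stayed at -0.49 but was not called. The 2 calls among 55 partners are a share near the 3.77% of all tested genes.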

How the results depend on the processing

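No subunit passed the limma test for lead, Mt-KO, heterozygous or the interaction under the RMA, GC-RMA or PLIER values, quantile normalization, centred arrays, averaged probe sets, eBayes without trend, no brightness filter or the upper 40% of genes, nor for lead with no genotype block; Grik4 lay outside the upper 40% and was not tested there. The number of all genes called was less steady, and the cause was not tested. For lead it was 0 with GC-RMA, quantile normalization, centred arrays, no brightness filter, the mean over probe sets, eBayes without trend and no genotype block, and 4 with the upper 40% of genes. For Mt-KO it was 0 with GC-RMA, 1 with quantile normalization, 7 with centred arrays, 6 with no filter, 20 with the upper 40%, 10 with the mean over probe sets and 4 without trend. For heterozygous it was 6 with the upper 40% and 0 with the other settings named for Mt-KO. For the interaction it was 0 with GC-RMA, 142 with PLIER, 1 with quantile normalization, 20 with centred arrays, 92 with no filter, 100 with the upper 40% and 79 without trend.

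With arrays or pairs left out, the subunits called ranged from 0 to 4 for lead, 0 to 5 for Mt-KO, 0 to 5 for heterozygous and 0 to 1 for the interaction, and all genes called from 1 to 2632, 8 to 4380, 3 to 2627 and 15 to 1029. The coefficients that changed sign in this way ranged, for lead, from -0.054 to 0.29 for Gria2, -0.095 to 0.22 for Gria3, -0.11 to 0.14 for Grik1, -0.058 to 0.29 for Grik3 and -0.0022 to 0.15 for Grik5. For Mt-KO they ranged from -0.40 to 0.13 for Gria3, -0.14 to 0.066 for Gria4, -0.26 to 0.15 for Grik1, -0.54 to 0.071 for Grik3, -0.093 to 0.027 for Grik4 and -0.17 to 0.13 for Grik5. For heterozygous they ranged from -0.51 to 0.095 for Gria2, -0.29 to 0.23 for Gria3, -0.028 to 0.17 for Gria4, -0.24 to 0.17 for Grik1, -0.11 to 0.25 for Grik2, -0.25 to 0.36 for Grik3 and -0.28 to 0.020 for Grik5. For the interaction they ranged from -0.25 to 0.063 for Gria4, -0.23 to 0.26 for Grik4 and -0.34 to 0.054 for Grik5.

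Signs also turned under other settings. With GC-RMA, Grik4 was 0.030 for lead, -0.17 for heterozygous and -0.12 for the interaction, Grik3 was -0.046 for heterozygous and Gria4 0.013 for the interaction. With PLIER, Grik4 was 0.10, -0.040 and -0.086 for the same comparisons and Gria3 0.0091 for heterozygous. With centred arrays, Grik1 was -0.011 for lead and Gria4 0.046 for the interaction. With the mean over probe sets, Grik1 was -0.043 for lead and Gria4 0.10 for Mt-KO. With quantile normalization, Grik1 was -0.021 for lead, Gria4 0.019 and Grik5 0.064 for Mt-KO, and Gria4 0.077 and Grik5 0.034 for the interaction. The settings for Akap5 and Shisa6 were chosen after seeing the data. No paired analysis was possible because no replicate numbers pair the pools, beyond the pairing of saline with lead within a genotype that the lead fit and the sign-flip test use. The 5 pups of a pool share 1 array, so differences between pups are not measured.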
